A study of Homo sapiens with 4 samples.

Results

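The MAX network is a small family of transcription factors that share the dimerisation partner MAX, and 9 of its genes are described here out of the 57773 genes in each deposited table. The members were taken by symbol from the name column: the activators MYC and MYCN, the common partner MAX, and the repressors MXD1, MXD3, MXD4, MXI1, MNT and MGA. Each symbol matched 1 row. RNA sequencing compared libraries of A2780, an established line of human ovarian cancer cells whose labels give the genotype as WT and the cell type as ovarian adenocarcinoma, in 2 groups of 2 libraries. The vehicle group received DMSO (libraries 1 and 2, with no time given), and the other received the plant flavone wogonin at 10 ug/mL for 48 h (libraries 3 and 4). The study asked whether wogonin limits ovarian cancer growth by way of DNA demethylation. The labels do not state whether the libraries of a group are independent cultures, so the tests measure the spread between these libraries, which could be technical. In bulk RNA, a lower level in each cell and fewer cells holding a transcript cannot be told apart.

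MYC is an unstable transcription factor that binds E-box DNA as a dimer with MAX and raises the output of genes for growth, ribosome production and cell division. The MXD proteins and MNT compete for MAX and for the same E-boxes, and recruit the SIN3 and histone deacetylase corepressor. MGA is a large MAX partner that works within a Polycomb-type repressor complex. MXD genes are commonly induced as cells stop dividing and differentiate, whereas MYC is amplified or raised in many ovarian cancers.

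The libraries held 11005921 to 11839562 exon reads. In wogonin 3, 7.96% of reads counted to exon-bearing genes lay in introns, against 5.26% to 5.61% in the other libraries. Mitochondrial genes took 3.03% of exon reads in wogonin 4 and 1.45% to 1.67% in the others. The epithelial and ovarian carcinoma markers that would define the labelled cell type were nearly absent: none of 6 epithelial markers (EPCAM, KRT8, KRT18, KRT19, KRT7, CDH1) reached 1 TPM (a transcript level scaled by exon length and library) in all libraries, and their summed level was 0.277 to 1.82 TPM. The summed level of 6 ovarian carcinoma markers was 0 to 0.561 TPM, with MUC16, ESR1 and SOX17 at 0 in every library. Of 5 fibroblast markers 3 reached 1 TPM, with a summed level of 483 and 456 TPM in DMSO 1 and 2 and 360 and 337 TPM in wogonin 3 and 4, nearly all of it COL3A1. Of the blood and endothelial markers found by symbol only CD68 reached 1 TPM (26.3 to 40.9 TPM). The endothelial marker PECAM1 matched no row and was not measured. The part of these marker levels in the results below was not tested.

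In all, 5 of the repressor transcripts and MYC itself were lower after wogonin, MAX was higher, and MGA did not pass the test. The falls were steepest in MXD3 (log2 fold change -2.49) and MXI1 (-2.01) and shallower in MXD4, MXD1, MNT and MYC (-0.59 to -0.27). Of the 8 members with reads, 6 were called lower and 1 higher at an adjusted p under 0.05. Over all 13449 genes tested 63.8% were called, 31.5% as lower and 32.3% as higher, so a call alone is common in these data. The groups did not overlap in 7 of the 8 members and in 81.9% of all genes tested. The split of all calls moved with the scaling, from 4343 higher and 4234 lower to 3660 and 4977 with library totals alone, whereas the members' counts stayed at 1 and 6. Each of the 8 members had at least 28 exon reads in each library, so none entered the test through 1 group only.

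**Figure D1:**
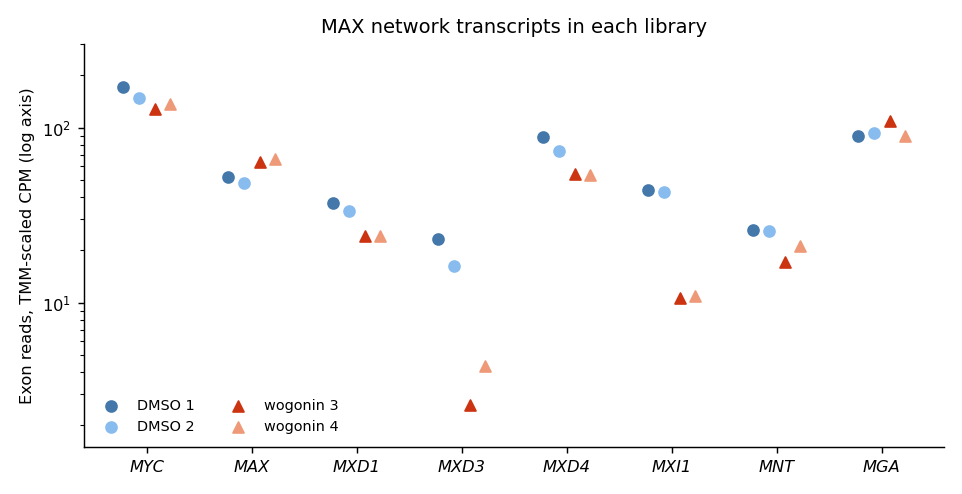
Exon reads of the 8 detected members in each library, in TMM-scaled CPM (log axis), with circles for DMSO and triangles for wogonin. Both triangles lie below both circles for MYC, MXD1, MXD3, MXD4, MXI1 and MNT, and above them for MAX. For MGA, wogonin 3 lies above both circles and wogonin 4 is level with DMSO 1.

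MYC was the dominant activator and the most abundant member in every library. It lies on chromosome 8 from 128747680 to 128753674 (ENSG00000136997, plus strand, in the GRCh 37 or hg 19 coordinates that the submitters' processing notes name, as for all gene positions here). Its level was 171 and 147 CPM (counts scaled by TMM library size) in DMSO 1 and 2, and 128 and 136 CPM in wogonin 3 and 4. Both treated libraries were below both vehicle libraries, but DMSO 2 lay closer to wogonin 4 than to DMSO 1. The log2 fold change of MYC was -0.27, with an SE of 0.07 (adjusted p = 0.0052 by edgeR), and 33.7% of all tested genes had a lower one. Without DMSO 1 the value was -0.17 and the call was lost (edgeR adjusted p = 0.090). Reads spanning exon junctions numbered 309 and 244 in DMSO and 200 and 180 in wogonin (log2 fold change -0.39, adjusted p = 0.018 by edgeR). Per exon length, MYC stood at 242 and 212 TPM in DMSO and at 170 and 172 TPM in wogonin, which made it the 678th, 846th, 1149th and 1042nd most abundant gene of those libraries.

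MYCN, the paralogue known for its amplification in neuroblastoma, had 0 exon reads, 0 intron reads and 0 junction reads in all 4 libraries. Its antisense neighbour MYCNOS also had 0 reads. At these depths 3 counts, the limit that a count of 0 allows, equalled 0.253 to 0.273 CPM, and this limit covers counting error only. The other paralogue, MYCL, is not among the 9 genes but was detected. It fell from 179 and 172 exon reads in DMSO to 31 and 24 in wogonin (log2 fold change -2.51, SE 0.20, adjusted p = 1.5e-08 by edgeR).

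MAX, the shared partner of MYC and the MXD proteins, rose modestly. The gene lies on chromosome 14 from 65472892 to 65569413 (ENSG00000125952, minus strand). Its level was 52.1 and 48.4 CPM in DMSO and 63.8 and 66.4 CPM in wogonin (log2 fold change 0.37, SE 0.08, adjusted p = 6.9e-04 by edgeR). The groups were clearly apart, by more than the distance between libraries of a group. MAX overlaps FNTB on the opposite strand by 56477 bases, and FNTB rose too, by a log2 fold change of 0.87. The readthrough gene CHURC1-FNTB, which overlaps MAX by 55630 bases, had 14 and 19 exon reads in DMSO and 14 and 42 in wogonin and did not pass (log2 fold change 0.91, adjusted p = 0.11 by edgeR). A further antisense gene, RP11-840I19.3, had at most 1 read. The strand setting of the counting is not given in the sources used here, so exchange of reads between them was not tested. MAX junction reads went from 142 and 115 to 173 and 168 (log2 fold change 0.56, adjusted p = 0.0023 by edgeR).

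MXI1, also known as MXD2, had the smallest adjusted p of the members. It lies on chromosome 10 from 111967363 to 112047123 (ENSG00000119950, plus strand). There were 519 and 527 exon reads in DMSO and 114 and 119 in wogonin, or 44.0 and 42.9 against 10.6 and 11.0 CPM. The libraries of a group were nearly equal and the groups were 4.02-fold apart (log2 fold change -2.01, SE 0.11, adjusted p = 3.2e-10 by edgeR). Only 2.13% of the tested genes had a lower log2 fold change. Junction reads gave -2.17, from 208 and 183 to 40 and 38 reads. Both genes that overlap MXI1, an antisense RNA and a pseudogene, had 0 reads.

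MXD3, an MXD member that is described in dividing cells, showed the steepest fall. It lies on chromosome 5 from 176728462 to 176739758 (ENSG00000213347, minus strand). There were 273 and 198 exon reads in DMSO and 28 and 47 in wogonin. The spread within each group was wide, yet the highest treated library stood far below the lowest vehicle library. The log2 fold change was -2.49 (SE 0.25, adjusted p = 1.5e-05 by edgeR), with 0.996% of tested genes lower. MXD3 overlaps RAB24 on the same strand and PRELID1 on the opposite one, and both of these rose (log2 fold change 0.39 and 0.48). In junction reads MXD3 went from 168 and 123 to 11 and 24 (log2 fold change -2.89, adjusted p = 1.8e-07 by edgeR).

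MXD4 was the most abundant MXD transcript per exon length in both groups. It lies on chromosome 4 from 2249159 to 2264021 (ENSG00000123933, minus strand). Its level was 88.9 and 73.5 CPM in DMSO and 54.1 and 53.6 CPM in wogonin (log2 fold change -0.59, SE 0.09, adjusted p = 4.2e-05 by edgeR). The 2 treated libraries were almost equal, whereas the vehicle libraries differed. Junction reads fell further, from 402 and 358 to 166 and 139 (log2 fold change -1.16, adjusted p = 1.1e-07 by edgeR). The difference between these 2 log2 fold changes of MXD4 was not tested.

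MXD1, the founding MXD repressor, lies on chromosome 2 from 70124820 to 70170077 (ENSG00000059728, plus strand). Its level was 37.0 and 33.6 CPM in DMSO and 24.0 and 24.1 CPM in wogonin (log2 fold change -0.55, SE 0.10, adjusted p = 1.7e-04 by edgeR). The treated libraries were again nearly equal and below both vehicle libraries. MXD1 overlaps SNRNP27 on the same strand by 7888 bases, and SNRNP27 rose by a log2 fold change of 0.35. MXD1 junction reads were few, 49 and 51 in DMSO and 27 and 35 in wogonin, and their log2 fold change of -0.53 did not pass (edgeR adjusted p = 0.081).

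MNT is the broadly expressed MAX partner that is thought to set the ground state against MYC. It lies on chromosome 17 from 2287354 to 2304412 (ENSG00000070444, minus strand). Its level was 25.9 and 25.7 CPM in DMSO and 17.0 and 21.1 CPM in wogonin (log2 fold change -0.44, SE 0.12, adjusted p = 0.0042 by edgeR). Wogonin 4 lay between wogonin 3 and the vehicle libraries. Without wogonin 3 the value was -0.29 and the call was lost (edgeR adjusted p = 0.075). Between 57.9% and 62.4% of the exon reads of MNT were placed at a single position, against at least 82.1% in each other member and library, and with those reads alone the log2 fold change was -0.42 (edgeR adjusted p = 0.012). The antisense gene RP1-59D14.1, which overlaps MNT by 1818 bases, had 0 and 18 reads in DMSO and 18 and 8 in wogonin. In junction reads the MNT log2 fold change of -0.57 did not pass (edgeR adjusted p = 0.060).

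MGA did not pass the test. It lies on chromosome 15 from 41913422 to 42062141 (ENSG00000174197, plus strand). Its level was 89.0 and 93.4 CPM in DMSO and 109 and 89.0 CPM in wogonin (log2 fold change 0.12, SE 0.09, adjusted p = 0.26 by edgeR). The groups overlapped, and wogonin 3 stood above the other libraries. Without wogonin 3 the value was -0.029, and without wogonin 4 it was 0.25 and passed (edgeR adjusted p = 0.012).

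Promoters were examined because several repressor genes of the network fell together. RefSeq windows of 250 bases before to 50 after the start (build GRCh38.p14, another build than that of the files, as positions below) were found for 8 of the 9 members, 13 windows in all. MYC had no window and was not searched. In all, 4 motifs, chosen with the results known, were searched on both strands: the E-box CACGTG that MAX dimers bind, the FOXO motif GTAAACA, and the E2F motifs TTTCCCGC and TTTGGCGC. The E-box occurred in the windows of MXD4 and MNT, and in 7.26% of all 35116 windows of this length. The FOXO motif occurred in 2 of the 3 windows of MXI1, and in 3.42% of all windows. The motif TTTGGCGC was found in the window of MYCN and in 1 window of MGA (0.652% of all windows), and TTTCCCGC in none of the 13 windows (1.63% of all windows). MXD1, MXD3 and MAX held none of the 4. The 4 windows with a match in repressor genes that fell are shown: those of MXD4 and MNT share the E-box, and the FOXO match was in MXI1 alone among the members searched. Capitals mark the match, a description of the letters and not a measured binding site.
MXD4, chr4:2262060-2262359, minus strand: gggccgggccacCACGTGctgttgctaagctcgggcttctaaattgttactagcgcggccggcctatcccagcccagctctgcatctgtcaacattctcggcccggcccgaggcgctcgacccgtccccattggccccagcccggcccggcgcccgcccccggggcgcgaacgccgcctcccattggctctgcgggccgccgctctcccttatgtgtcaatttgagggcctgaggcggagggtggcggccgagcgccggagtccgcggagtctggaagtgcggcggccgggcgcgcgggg
MNT, chr17:2401011-2401310, minus strand: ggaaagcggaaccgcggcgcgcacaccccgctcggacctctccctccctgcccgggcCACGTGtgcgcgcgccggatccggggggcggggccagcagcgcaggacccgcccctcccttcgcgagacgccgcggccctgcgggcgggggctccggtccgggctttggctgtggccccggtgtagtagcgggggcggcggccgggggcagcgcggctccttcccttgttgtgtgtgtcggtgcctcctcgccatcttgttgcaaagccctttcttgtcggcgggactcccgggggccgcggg
MXI1 window a, chr10:110209981-110210280, plus strand: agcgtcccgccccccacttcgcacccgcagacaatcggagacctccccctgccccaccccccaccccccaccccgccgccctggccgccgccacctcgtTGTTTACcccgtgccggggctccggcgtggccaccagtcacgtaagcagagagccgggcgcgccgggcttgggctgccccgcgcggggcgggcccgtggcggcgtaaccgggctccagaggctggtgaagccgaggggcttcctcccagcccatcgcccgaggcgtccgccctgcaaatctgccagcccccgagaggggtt
MXI1 window b, chr10:110225746-110226045, plus strand: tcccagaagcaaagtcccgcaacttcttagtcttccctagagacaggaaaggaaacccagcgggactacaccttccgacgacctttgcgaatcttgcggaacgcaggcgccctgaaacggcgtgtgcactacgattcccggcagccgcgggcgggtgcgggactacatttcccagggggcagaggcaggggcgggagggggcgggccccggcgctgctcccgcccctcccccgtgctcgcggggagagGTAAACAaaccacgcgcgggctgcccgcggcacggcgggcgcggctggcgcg
Counted from the start site, the matches begin at -238 in MXD4, -193 in MNT, and -151 and -2 in the 2 windows of MXI1. The windows of MXD4 and MNT are rich in G and C (72.3% and 76.0%), as are the 2 shown of MXI1 (75.3% and 69.0%). The third window of MXI1, without a match, has 55.0%, and that of MXD3 60.7%.

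Levels can be compared between members only per exon length. The exon length listed was 2995 bases for MYC and 4607 to 7058 bases for the 4 MXD genes. Where the transcripts present are shorter than the listed length, TPM is too low, and this was not tested. The order of members, and the shares and ratios below, depend on these lengths. In DMSO the order was MYC (227 ± 21.2 TPM, SD, n = 2), MXD4 (49.2 ± 5.91), MAX (48.6 ± 1.85), MXI1 (40.4 ± 0.110), MGA (26.9 ± 1.28), MXD1 (23.9 ± 1.32), MNT (17.5 ± 0.161) and MXD3 (16.3 ± 3.88 TPM). MXD4 and MAX, and MNT and MXD3, overlapped in their libraries. In wogonin the order was MYC (171 ± 1.00 TPM, SD, n = 2), MAX (57.1 ± 0.578), MXD4 (29.6 ± 1.30), MGA (26.6 ± 4.81), MXD1 (14.8 ± 0.484), MNT (11.7 ± 1.35), MXI1 (9.10 ± 0.146) and MXD3 (2.60 ± 0.817 TPM). MXD4 and MGA overlapped there. MXI1 thus moved from below MAX to next to last of the detected members, while MYC stayed first.

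The make-up of the pool of MAX partners among the members differed between the groups. MYCL, which was detected but is not a member, is not in this pool. The summed TPM of MYC, the 4 MXD genes, MNT and MGA was 424 and 380 in DMSO and 268 and 263 in wogonin. MAX itself was between 47.3 and 57.5 TPM. These TPM values were used without TMM scaling. In the fits of exon reads the median log2 fold change of all genes tested was -0.09 with library totals alone and -0.00 with TMM. The part of scaling in the lower sum was not tested. MYC made up 57.2% and 55.9% of that pool in DMSO and 63.5% and 65.3% in wogonin. The 4 MXD genes made up 32.5% and 32.1% in DMSO and 21.3% and 21.1% in wogonin, with MXI1 going from 9.56% and 10.6% to 3.44% and 3.43%. The share of MGA was 6.14% and 7.33% in DMSO and 11.2% and 8.83% in wogonin. These are transcript shares and do not measure protein or DNA binding.

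The TPM of MYC was 1.76 and 1.74 times the summed TPM of the MXD genes in DMSO 1 and 2 and 2.99 and 3.10 times in wogonin 3 and 4. Both treated libraries were higher, although MYC itself was lower in them. The log2 ratio was 0.81 ± 0.01 in DMSO and 1.61 ± 0.04 in wogonin (SD, n = 2 each), a difference of 0.80, or 1.74-fold (exact permutation test, 2-sided, p = 0.333, the smallest that 2 against 2 libraries can give). The difference was 0.51 with MXI1 left out of the sum, 1.19 with MXD4 left out, and 1.15 in junction reads, all chosen after seeing the data.

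**Figure D2:**
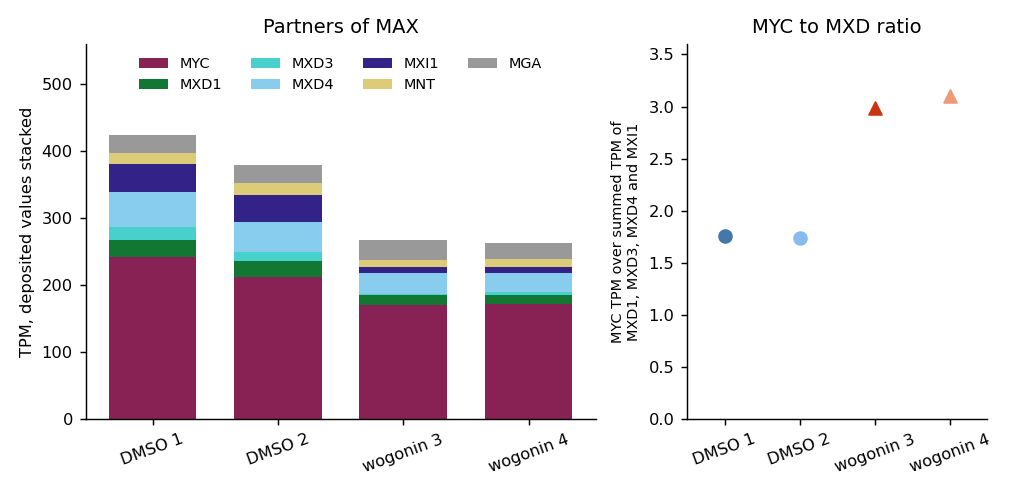
Left, deposited TPM of the 7 detected MAX partners among the members, without MYCL, stacked for each library. The total goes from 424 and 380 TPM in DMSO to 268 and 263 TPM in wogonin. Right, MYC TPM over the summed TPM of MXD1, MXD3, MXD4 and MXI1, near 1.75 in DMSO and at 2.99 and 3.10 in wogonin.

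Intron reads can come from unspliced RNA, or from transcripts that keep an intron, and were counted apart from exon reads. Reads of a gene that overlaps a member could also be counted there, which was not tested. All 8 detected members had some intron reads, but few: 3 to 100 reads per gene and library. MXD4 and MXD3 were lower in intron reads as well, and the other 6 did not pass. Over 10495 genes tested in intron reads, 20.1% were called and 8.81% were called lower. MXD4 went from 59 and 41 intron reads in DMSO to 15 and 19 in wogonin (log2 fold change -1.83, SE 0.38, adjusted p = 0.0038 by edgeR). MXD3 went from 11 and 17 intron reads to 5 and 3 (log2 fold change -2.09, SE 0.55, adjusted p = 0.015 by edgeR). Neither call held without DMSO 1, where the log2 fold changes were -1.52 for MXD4 and -2.36 for MXD3 (edgeR adjusted p = 0.073 and 0.11). With the scaling of the exon reads they were -1.40 and -1.62 (edgeR adjusted p = 0.065 and 0.092). The call of MXD3 was also lost without DMSO 2 (-1.79, edgeR adjusted p = 0.41).

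MXI1 was the member whose intron reads least followed its exon reads. Its intron reads were 16 and 14 in DMSO and 24 and 12 in wogonin (log2 fold change -0.07, SE 0.42, adjusted p = 0.93 by edgeR), beside -2.01 in exon reads. Introns made up 2.99% of its reads in DMSO 1 (95% Wilson interval 1.85 to 4.80%) and 2.59% in DMSO 2 (1.55 to 4.30%). They made up 17.4% in wogonin 3 (12.0 to 24.6%) and 9.16% in wogonin 4 (5.32 to 15.3%). In the test of the difference itself, the exon minus intron log2 fold change was -1.96 (SE 0.43, adjusted p = 0.0070 by edgeR). Over 9475 genes so tested 10.9% were called, 6.27% in this direction. The call was lost without DMSO 1 (-2.09, edgeR adjusted p = 0.064) or DMSO 2 (-1.88, 0.10), and it held without either treated library, wogonin 3 with its high intron share included.

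MXD4 went the other way, with an exon change 1.22 above its intron change (SE 0.38, edgeR adjusted p = 0.0498). That call was lost without DMSO 1 (1.03, edgeR adjusted p = 0.45), DMSO 2 (1.34, 0.22) or wogonin 3 (0.73, 0.14), and in uniquely placed reads (1.20, 0.056). MGA had 100 intron reads in wogonin 3 and 35 to 38 in the other libraries. MAX had 85 in wogonin 3, 51 in wogonin 4 and 36 and 30 in DMSO. Wogonin 3, the library with the highest intron share over all genes, was thus also the highest for both. Without wogonin 3 the intron log2 fold change of MGA went from 0.49 to -0.077, and that of MAX from 0.71 to 0.63. The cause of the higher values in wogonin 3 was not tested. MYC had 21 and 22 intron reads in DMSO and 25 and 39 in wogonin, and its exon and intron changes did not differ beyond their error (difference -0.58, SE 0.41, edgeR adjusted p = 0.40). Without wogonin 3 that difference was -1.15 and passed (edgeR adjusted p = 0.0069).

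**Figure D3:**
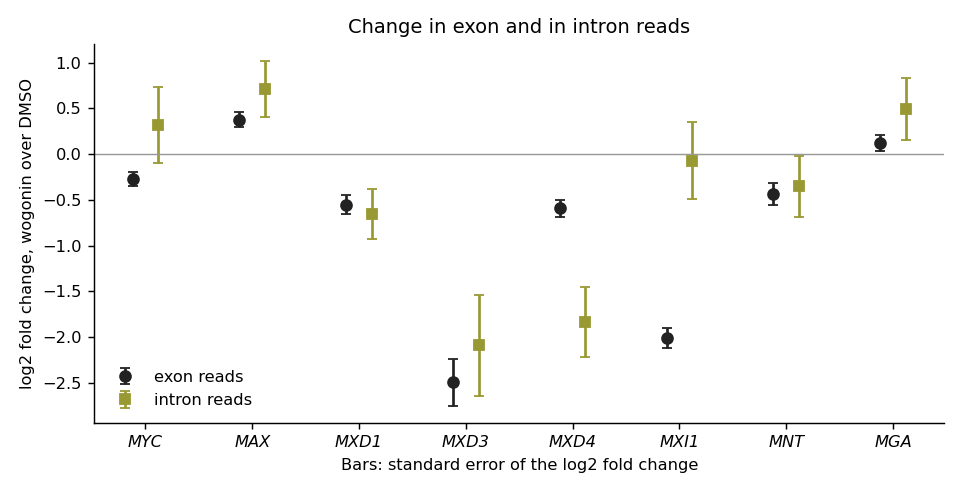
Log2 fold change of wogonin over DMSO for exon reads (black circles) and intron reads (olive squares) of each detected member, with standard errors from the edgeR fits. The 2 values stand far apart for MXI1 (-2.01 and -0.07) and in the other direction for MXD4 (-0.59 and -1.83).

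**Figure D4:**
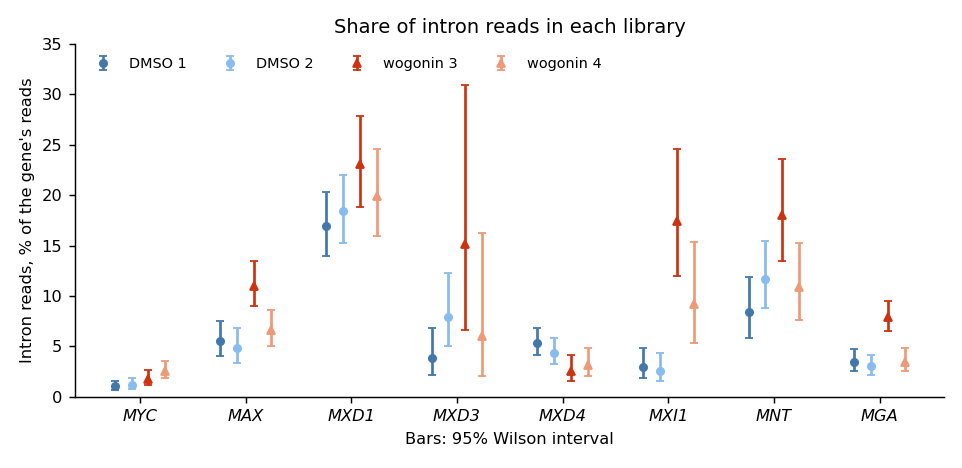
Intron reads as a percentage of all reads of each member in each library, with 95% Wilson intervals that cover counting error only. For MXI1 the intervals of both wogonin libraries lie above those of both DMSO libraries.

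Genes with a profile close to a member were named by their distance in centred log2 CPM over the 4 libraries, among 10154 other genes whose mean log2 CPM reached 3. Nearest to MXI1 were HNRNPD (distance 0.07), ID2 (0.07) and HEXIM1 (0.08), with log2 fold changes of -1.93, -2.02 and -2.03. HNRNPD encodes the RNA-binding protein AUF1, ID2 a helix-loop-helix inhibitor, and HEXIM1 an inhibitor of the elongation kinase P-TEFb. Nearest to MYC were EXT1 (distance 0.04), CDC42EP5 (0.04) and MRPS18C (0.04), with log2 fold changes of -0.29, -0.31 and -0.30, of which CDC42EP5 did not pass (edgeR adjusted p = 0.078). With 4 libraries in 2 groups, such likeness is mostly the size of the change.

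The MLX branch, a parallel network in which MLX takes the place of MAX, was listed with MYCL as relatives of the members. MLX rose (log2 fold change 0.58, adjusted p = 4.5e-06 by edgeR), from 65.0 to 97.4 CPM. MLXIP, the glucose sensor MondoA, rose (log2 fold change 0.45, adjusted p = 1.4e-04 by edgeR), from 50.2 to 68.5 CPM. MLXIPL, the carbohydrate response factor ChREBP, fell (log2 fold change -0.57, adjusted p = 0.011 by edgeR), from 10.1 to 6.76 CPM. Both common partners, MAX and MLX, were thus higher after wogonin.

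Corepressors and cofactors of the members went both ways, as did all tested genes, of which 32.3% rose and 31.5% fell. In the SIN3 corepressor list 9 of 18 tested genes fell, 3 rose and 6 did not pass. The median log2 fold change was -0.21, beside -0.00 over all genes tested, and it was -0.14 without DMSO 2 and -0.11 without wogonin 3. The share of this list that passed, 66.7%, was near the 63.8% of all tested genes. BRMS1L (-1.17), ARID4A (-1.01) and SAP30 (-0.81), all accessory subunits, fell, whereas HDAC1 (0.28), SAP18 (0.25) and RBBP4 (0.16) rose. Among 20 MYC cofactors 8 rose and 8 fell. The elongation factors CCNT1 (0.56), CDK9 (0.55) and SUPT5H (0.43) rose, and the chromatin remodelling subunit SMARCB1 (-1.15), PAF1 (-0.80) and the acetyltransferase CREBBP (-0.62) fell. Of 12 genes of the MGA complex 5 rose and 3 fell, which is also 66.7% passing. Its DNA-binding pair E2F6 (0.67) and TFDP1 (0.46) and the reader L3MBTL2 (0.47) rose, and the Polycomb genes RING1 (-0.84), YAF2 (-0.66) and RNF2 (-0.47) fell.

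Of 21 genes that govern the stability of MYC protein, 8 rose and 10 fell. SKP2 (0.70) and STUB1 (0.58), which act in ubiquitin ligation, and the deubiquitinase USP36 (0.64) rose. The mitotic kinase PLK1 (-1.45), the ligase HUWE1 (-0.97) and KIAA1524 (-0.60), which encodes the phosphatase inhibitor CIP2A, fell. Of 14 regulators of MYC RNA or its transcription 5 rose and 6 fell. HNRNPD (-1.93), FUBP1 (-1.29), which binds DNA upstream of MYC, and CTCF (-0.53) fell. HNRNPC (0.58), TIAL1 (0.38) and PVT1, the noncoding neighbour of MYC (0.56), rose. In these 2 lists and the cofactor list rises and falls were nearly even. The share that passed was 85.7% for protein stability, 78.6% for RNA regulators and 80% for cofactors, beside 63.8% of all tested genes.

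Of 45 genes described as induced by MYC, 28 rose, 6 fell and 11 did not pass, beside 32.3% rising and 31.5% falling over all tested genes. Their median log2 fold change was 0.32. The transferrin receptor TFRC (1.65), the ribosome assembly factor BOP1 (1.29) and the spermidine synthase SRM (1.03) had the smallest adjusted p of the rises, and TFRC went from 144 to 451 CPM. PRMT5 (-0.42), AIMP2 (-0.36) and the mitochondrial transcription factor TFB2M (-0.45) fell. Many genes of this list make ribosomes, and the list was chosen with a rise of such genes already known. Of 17 tested genes described as repressed by MYC, 4 rose and 9 fell, again beside 32.3% and 31.5% of all tested genes. Their median log2 fold change was -0.30, and it was -0.54 without DMSO 2 and -0.51 without wogonin 4. CDKN1A (2.12) rose from 26 and 17 exon reads in DMSO to 86 and 82 in wogonin, and CCND1 (0.64) and ITGB1 (0.42) rose. CDKN2B (-1.39) and FTH1 (-0.51) fell, and NDRG1 fell from 65 and 63 exon reads in DMSO to 2 and 5 in wogonin.

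**Figure D5:**
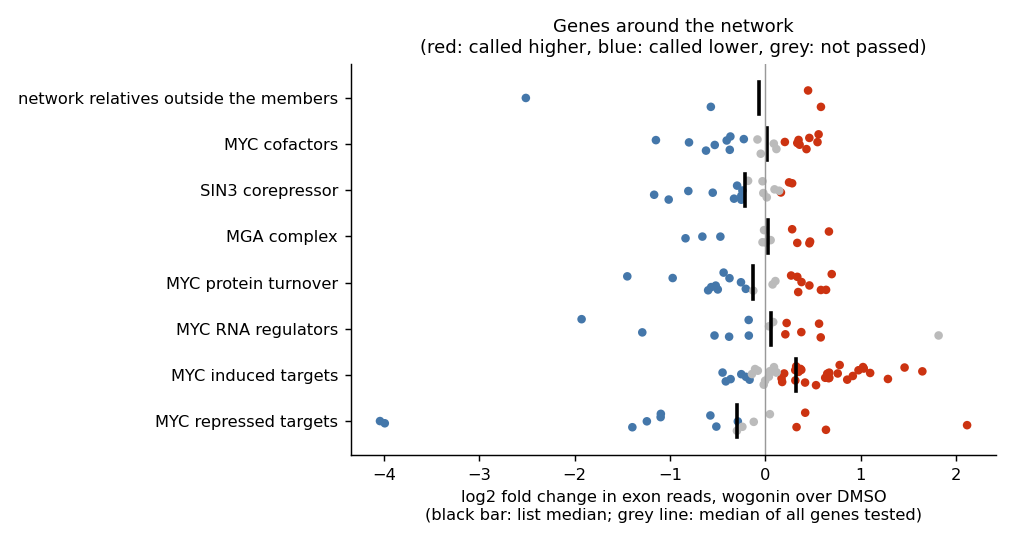
Log2 fold change in exon reads of each tested gene in the 8 lists around the network, coloured by its edgeR call, with the list median as a black bar. The median lies at 0.32 for MYC induced targets, at -0.30 for MYC repressed targets (-0.54 without DMSO 2) and at -0.21 for the SIN3 corepressor (-0.11 without wogonin 3), and the fitted values near -4 belong to genes with 0 to 5 reads in wogonin.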

How the data were processed

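The deposited files hold 1 table per library, made by the authors and the sources used here do not give the program, annotation release or strand setting. Per the file headers they give read counts per gene in exons, introns and exon junctions, TPM and RPKM values from exon reads, and fractions of unique and of intron reads. The TPM column was used for levels between genes, and RPKM and the deposited fractions were not analysed further. The test of total exon read counts was the robust quasi-likelihood fit of edgeR 4.0.16, run in R 4.3.3 after filterByExpr and TMM scaling (2-sided, Benjamini-Hochberg over all genes tested, threshold 0.05). Intron counts of genes with exons had a fit of their own, and the exon against intron difference was an interaction term with library as a block. The fits were tested on simulated data. The floor was 3 counts. Alternatives included DESeq2 1.42.0, limma 3.58.1, other scalings, filters and count columns, and each library left out. The rule names all members, up to 3 rises and 3 falls per list by adjusted p, genes overlapping a member (those at 0 reads in all libraries are not all listed), and the 3 nearest profiles to MYC and to the member with the smallest adjusted p. Members, lists and motifs were chosen with earlier results of these data known. Promoter windows are from RefSeq.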

Additional observations from a re-analysis of the deposited data

How the results depend on the processing

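Of 17 alternatives for exon reads, junction reads alone were added after seeing the data. Members called lower numbered 4 to 6, members called higher 1, except 2 without wogonin 4 (range 1 to 2 over the libraries left out), and all genes called 6265 to 9141. MXI1, MXD3, MXD4 and MAX kept direction and call in all 17. MYC, MXD1 and MNT kept direction and lost the call in 1, 1 and 2 settings, given above. With libraries left out in turn, MGA ranged from -0.029 to 0.25 and turned negative without wogonin 3. Members called lower in intron reads, 2 as reported, were 0 with the scaling of the exon reads and 0 to 3 over the libraries left out, and members called higher were 0 to 2. With the scaling of the exon reads the intron log2 fold changes of MXI1 and MNT turned to 0.42 and 0.12. With libraries left out in turn, intron log2 fold changes ranged from -0.41 to 0.86 for MYC, -0.32 to 0.052 for MXI1 and -0.077 to 0.81 for MGA, each on both sides of 0. Members called in the exon against intron difference, 2 as reported, were 1 in uniquely placed reads and 0 to 2 over the libraries left out. With libraries left out in turn, that difference ranged from -1.15 to 0.044 for MYC, -0.13 to 0.26 for MXD1, -1.05 to 0.049 for MXD3 and -0.45 to 0.090 for MNT. The MYC to MXD difference in log2 ratio was 0.71 with MNT added to the sum, 0.94, 0.67, 1.19 and 0.51 with MXD1, MXD3, MXD4 or MXI1 left out, and 1.15 in junction reads. The list medians were 0.23 to 0.36 for MYC induced targets, -0.54 to -0.25 for MYC repressed targets and -0.30 to -0.11 for the SIN3 corepressor. A fit without 1 library assumes that the lone library varies like the other group. Beyond fewer samples or reads in those fits, the cause of these moves was not tested. Low intron counts (3 to 100 reads) limit all intron results. No paired analysis was possible because the 2 groups share no replicate number.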
